A study of Mus musculus with 38 samples.

Results

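The genes described here encode the proteins of the cytoplasmic ribosome. They were chosen by symbol, as genes named Rpl or Rps with a number, the stalk genes Rplp0, Rplp1 and Rplp2, and Rpsa. Symbols with -ps and the S6 kinase genes were left out, as were 4 genes that are not analysed here. The rule took 89 of the 54352 genes in the count table, and 79 of these had enough counts to be tested among 4729 genes. Of the 89 members, 82 are annotated as protein coding and 7 as processed copies. The rule also takes Rps19bp1, whose product binds a ribosomal protein but is not a part of the ribosome.

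The samples were intestinal stem cell organoids from C57BL6 mice, grown from crypts in 65% matrigel for 8 days and 2 passages. The study compared 4 genotypes, each with the PPARδ agonist GW501516 (GW, 1 uM) or with vehicle alone, and all cultures held 0.1% DMSO. Wild-type organoids (WT) gave 5 vehicle and 5 GW libraries, Ppard-fl/fl organoids (D) 5 and 4, Ppara-null organoids (A) 5 and 5, and organoids with both genotypes (DA) 4 and 5. The labels name no recombinase for the floxed gene, give no age, and do not say whether libraries of a group came from separate mice, so p-values measure only the spread between these 38 libraries. Groups are also written as treatment and genotype, such as Veh_WT and GW_WT. One of the 4 GW libraries in D carries a genotype label naming both genes. It was placed by its title, and the column names do not say which of the 4 columns it is. Replicate numbers below follow the columns and are not those of the titles.

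RNA was read as tags from the 3′ end of polyadenylated transcripts. Total counts per library ran from 353347 to 577557, and levels below are CPM, a library's counts of such tags scaled to one common total, not divided by length. Ppara had 10.6 to 17.3 CPM on group average in WT and D and 2.01 to 3.80 CPM in A and DA. These averages rest on 1 to 13 counts per library in WT and D and 0 to 3 in A and DA, so single libraries overlapped. Ppard had 0 to 4 counts in every library, so its deletion could not be checked. Epithelial markers were present, with all 9 listed genes tested. Of 8 stromal markers 5 were at 0 counts, and the 8 together had 9 counts in all libraries. Column names end in library numbers, 24 from 1 to 36 and 14 from 37 to 60, and no label says what the numbers mark. Every group has libraries in both ranges. The later range holds 1 library each of D under GW and DA in vehicle, and 2 of each other group. Xist counts exceeded Y-linked counts in 18 of the 24 earlier libraries and in 0 of the 14 later ones.

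A ribosome joins a small subunit, which reads the messenger RNA, and a large subunit, which links amino acids. Each holds ribosomal RNA and many small proteins, named Rps and Rpl, which cells make in matched amounts. Their messenger RNAs are among the most abundant in dividing cells such as those of the intestinal crypt. Most of these messengers start with a run of pyrimidines, the terminal oligopyrimidine or TOP motif, through which mTORC1 signalling controls their translation.

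Coding length is the feature that the results below turn on. The shortest members are shown first, as coding sequences from GENCODE M21 (mm10) with the stop codon in capitals. Rpl41, on chr10:128548114-128549305 (minus strand), has 75 coding bases before the stop. Rpl39 lies on chrX:37082520-37085402 (minus strand) and has 153. Rps29, a zinc-binding protein of the small subunit, has 168 and is not shown.
Rpl41: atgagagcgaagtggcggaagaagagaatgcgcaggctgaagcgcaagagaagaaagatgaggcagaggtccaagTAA
Rpl39: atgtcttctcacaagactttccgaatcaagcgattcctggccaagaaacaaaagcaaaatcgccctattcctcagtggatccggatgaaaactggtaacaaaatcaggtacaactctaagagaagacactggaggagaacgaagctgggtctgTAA
At the other end, Rpl4 has 1257 coding bases, Rpl3 1209, and Rplp0 951. Coding length was known for 77 of the 79 tested members. The other two, Rpl37rt and Rps4l, are annotated as transcribed processed pseudogenes.

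The start of the transcripts was read from RefSeq promoter windows (GRCm38.p6), which were found for 65 member symbols with 75 windows. From 10 bases before the start to 50 after it, the letters CTCTTT stood on the sense strand in 17 of the 65 members (26.2%), against 2.45% of 27025 genes. CTTTCC stood there in 18 (27.7%), against 3.04%. The 2 motifs can overlap, and 8 members held both. On the opposite strand each was found in 1 member. The windows below show 15 bases before to 15 after the start in 4 members chosen because they hold a motif, which is in capitals. Rps6 is the substrate of the S6 kinases (chr4:86857353-86857382, minus strand). Rpl35 (chr2:39005117-39005146, minus), Rpl28 (chr7:4792950-4792979, plus) and Rpl38 (chr11:114668565-114668594, plus) are large-subunit proteins.
Rps6: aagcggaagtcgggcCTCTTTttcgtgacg
Rpl35: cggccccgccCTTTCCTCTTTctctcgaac
Rpl28: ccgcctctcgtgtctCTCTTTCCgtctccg
Rpl38: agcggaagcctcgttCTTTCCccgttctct
These matches are letters in a window and not mapped start sites.

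Many members have near-identical processed copies elsewhere in the genome, and a 3′ tag that fits both is shared out by the counting program. The pairs below show the last 60 coding bases of a member and the aligned bases of its copy, with capitals where the 2 differ. Rpl36 (chr17:56613416-56614243, plus) was 99.1% identical to Rpl36-ps12 (chr6:108140120-108140509, minus) over 318 coding bases. Rpl37 (chr15:5116645-5119140, plus) was 99.7% identical to Rpl37rt (chr5:115102923-115110268, minus), which the rule counts as a member of its own. Over the last 200 transcript bases, Rpl36 was 99.5% identical to its copy. Those of Rpl37 aligned to Rpl37rt over 18 columns alone, at 83.3% identity, so the transcript ends of this pair differ.
Rpl36: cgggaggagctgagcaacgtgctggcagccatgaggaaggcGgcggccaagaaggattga
Rpl36-ps12: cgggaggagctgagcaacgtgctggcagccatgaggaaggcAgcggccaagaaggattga
Rpl37: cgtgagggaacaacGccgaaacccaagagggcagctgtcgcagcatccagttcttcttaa
Rpl37rt: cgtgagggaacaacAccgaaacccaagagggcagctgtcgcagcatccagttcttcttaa
Rpl10 and Rpl10-ps3 were identical over all 645 coding bases including the stop and over the last 200 transcript bases.

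The counts were split along these lines. Of the members, 54 have pseudogenes named for them, and in 47 of these under 1% of the summed counts fell on the pseudogenes. In 6 members over 10% did. For Rpl10, a protein that joins the large subunit late in its assembly, 99.6% of the counts were on Rpl10-ps3, which left 12.4 CPM on Rpl10 itself and kept it out of the tests. For Rps2, a protein near the entry of the messenger channel, 83.1% were on pseudogenes, and for Rpl9 72.7%. For Rpl36a, Rps26 and Rpl36 the shares were 69.1%, 41.6% and 34.2%. Pseudogenes are meant here by their symbols. Rpl10-ps3, Rpl9-ps6 and Rpl36a-ps1, which took nearly all such counts of their members, are annotated as protein coding. The level of these 6 members is therefore the level of what the program assigned to the named gene. Their shares differed between libraries. The share on pseudogenes ran from 70.04% to 75.6% for Rpl9, from 78.3% to 85.7% for Rps2 and from 62.2% to 73.8% for Rpl36a. What was left on the named gene depended on this share. In the deposited log2 values, 24.4% of the nonzero member values lay within 0.01 of a whole count, against 90.5% of all nonzero values, and 17 tested members had no library with a whole count.

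Paralogs differ more in sequence, with 62.7% (Rpl7l1) to 87.9% (Rpl36al) identity of aligned coding bases. Rps27l, the p53-inducible relative of Rps27, took a median of 31.4% of the counts of the pair, with 27.7% to 41.4% over the libraries. Rpl22l1, the relative of Rpl22, took 58.2% (53.6% to 64.9%), and Rpl36al took 61.2% of the counts of the Rpl36a pair (53.3% to 70.2%). The Rpl36a pair leaves out the pseudogenes of Rpl36a, which held 28155 counts, against 12594 for Rpl36a and 19533 for Rpl36al. The share of Rpl36al thus rests on how tags were assigned. Rpl7l1, which is less like Rpl7, took 5.87%. Rps4l had 2 to 22 counts per library against 1318 to 3795 for Rps4x, the X-linked parent. Rpl3l, Rpl10l and Rpl39l, relatives that are known from muscle or testis, had 0 counts in all 38 libraries, as had Rps27rt and Rps12l1. A count of 0 allows up to 3 counts in a library, a limit that covers counting error only. The other untested members were Rpl32l, Rps3a2, Rps3a3 and Rpl6l, all processed pseudogenes with at most 7 counts in a library.

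Together the 89 members took 16.2% to 22.98% of the counts of a library, with a median of 20.4%. The member with most tags was Rpl41, at 7996 ± 906 CPM (SD, n = 38), followed by Rps18 at 7096 ± 509, Rpl32 at 6026 ± 550, Rps14 at 5855 ± 487 and Rps4x at 4635 ± 1006 CPM. The order is one of 3′ tags per gene. At the low end of the tested members were Rps4l at 16.04 ± 8.22, Rps19bp1 at 42.7 ± 10.2, Rpl7l1 at 173 ± 29.01, Rpl35 at 263 ± 41.6 and Rps2 at 287 ± 42.7 CPM. The lowest members thus included a copy, a protein outside the ribosome and Rps2, whose tags were shared with a pseudogene.

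**Figure D1:**
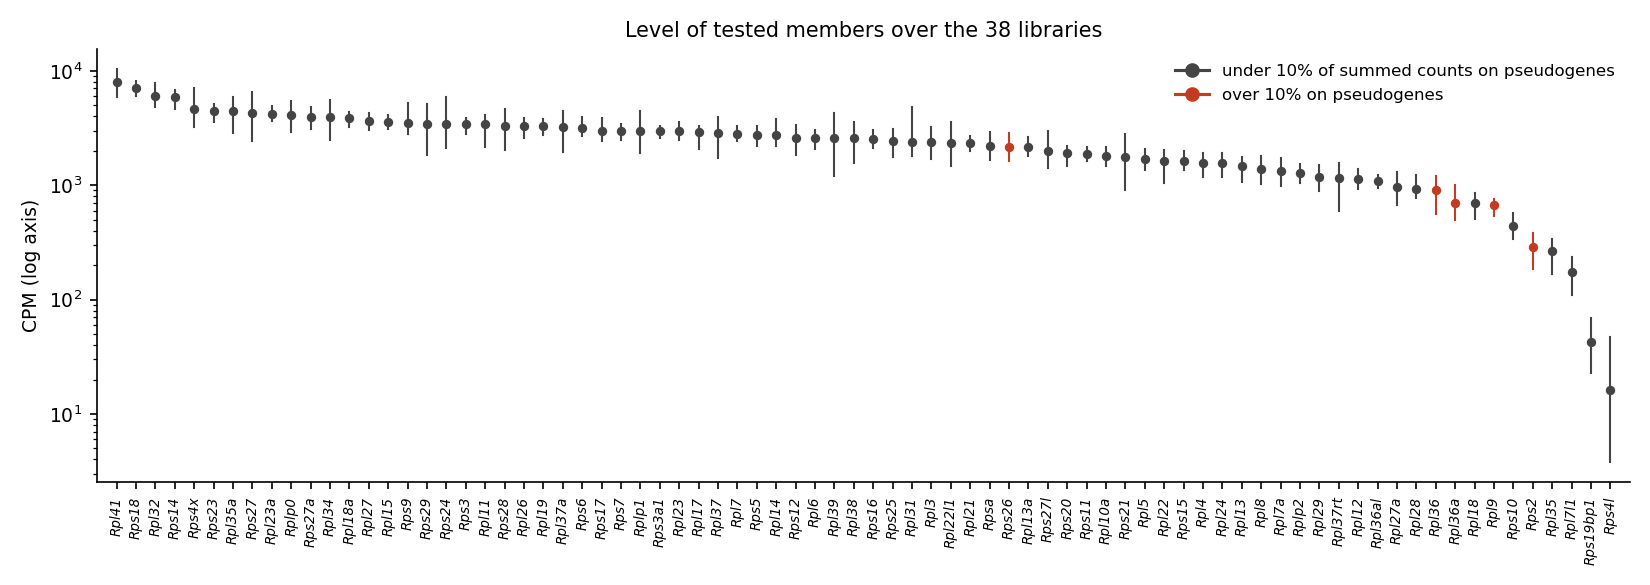
Level of tested members, ordered by their mean, with 1 of the 79 not drawn. The vertical axis is CPM on a log scale, points are means over the 38 libraries, and lines run from the lowest to the highest library. Red marks the tested members with over 10% of their summed counts on pseudogenes. Levels run from 7996 CPM for Rpl41 to 16.04 CPM for Rps4l, and the longest lines among highly read members belong to short ones such as Rpl39 and Rps29.

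Group means of members with known separate roles are given first. Rplp0, the base of the ribosomal stalk, ran from a group mean of 3288 ± 383 CPM (SD, n = 5) for GW in A to 4532 ± 945 CPM (n = 5) for GW in DA. Its partner Rplp1 ran from 2455 ± 367 CPM for GW in A to 3309 ± 874 CPM (n = 4) for GW in D, and Rplp2 from 1207 ± 109 to 1372 ± 137 CPM. Rpsa, a small-subunit protein also known as a laminin receptor, had 2084 ± 161 to 2394 ± 447 CPM. Rpl5 and Rpl11, which bind Mdm2 when ribosome assembly fails, had 1457 ± 73.3 to 1779 ± 175 CPM and 3100 ± 429 to 3692 ± 306 CPM. Rps6 had 2893 ± 224 to 3313 ± 523 CPM. The ends of each range differed by less than the sum of their SDs, which include the spread between library-number ranges, except for Rpl5. Over the 79 members the highest group mean exceeded the lowest by a median of 0.19 in log2, from 0.10 for Rpl18 to 1.18 for Rps4l. It was 0.46 for Rplp0 and 0.43 for Rplp1. In 45 members the lowest mean was that of GW in WT.

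The GW effect in WT asked whether the agonist changes these genes when both receptors are intact. No member passed the test, against 0.423% of all 4729 genes (20 genes). The test was edgeR's quasi-likelihood F-test, with a threshold of 0.05 on p-values adjusted over all genes by Benjamini and Hochberg. At an unadjusted p under 0.05 there were 2 members (2.53%), against 6.39% of all genes. DESeq2 and limma-trend also passed none, here and in the other 13 comparisons of treatment and genotype. Yet the members lay to one side: 77 of 79 had a negative log2 fold change and 2 a positive one, with a median of -0.15 (from -0.42 to 0.00), while the median of all genes was 0.01 and 48.8% of them were negative. The members share libraries and vary together, so this count is not 79 separate observations. The median was -0.06 within libraries 1 to 36, -0.23 within 37 to 60 and -0.16 with a term for the 2 ranges. It was -0.09 without Veh_WT replicate 2, -0.08 without GW_WT replicate 4 and -0.10 without GW_WT replicate 5.

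Rpl9, a large-subunit protein, had the smallest p of the members in this comparison. Its 5 vehicle libraries were at 736, 747, 713, 737 and 683 CPM, and its 5 GW libraries at 650, 569, 633, 691 and 576 CPM. GW libraries lay lower, but the highest of them exceeded the lowest vehicle library. The log2 fold change was -0.25 ± 0.11 (SE, 95% interval -0.48 to -0.02), with an unadjusted p of 0.0306 and an adjusted p of 0.708 (edgeR, Benjamini-Hochberg). Pseudogenes held 72.7% of the summed counts of Rpl9. With these counts added to those of Rpl9 the adjusted p was 0.829 (edgeR, Benjamini-Hochberg). Rps19bp1 followed at -0.42 ± 0.21, Rpl35 at -0.31 ± 0.15 and Rps3, which lines the entry of the messenger channel, at -0.17 ± 0.10. Short members sat lower on the median in this comparison. The 10 members of up to 300 coding bases had a median of -0.22 and the 19 of over 600 and up to 900 bases -0.10. Other genes whose mean log2 CPM was 8 or more had medians of -0.12 and -0.07 in the same classes. Across 77 members, which share their libraries, Spearman's rho of the GW effect in WT with coding length was 0.51. The trend was not shared by the other genotypes, with a rho of 0.05 in D, -0.42 in A and -0.05 in DA. For the mean GW effect over 4 genotypes rho was 0.10.

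The same comparison was made in the other genotypes. In D, where Ppard is floxed, no member passed (0.0% of all genes), and 72 of 79 were negative with a median of -0.09. Without GW_D replicate 4, the later library of its group, the median was 0.00, and without Veh_D replicate 2 it was -0.02. Without GW_D replicate 3 it was -0.19. Within libraries 1 to 36 it was -0.15, with 73 of 79 negative, against a median GW effect of -0.06 in WT in this range. Within 37 to 60 the median GW effect in D was -0.18. Rps6 at -0.18 ± 0.09 and Rpl3, a protein at the peptide-joining centre, at -0.20 ± 0.11 had the smallest p, both with adjusted p-values of 1.0 (edgeR, Benjamini-Hochberg). In A no member passed (0.296% of all genes), with 33 positive and 46 negative and a median of -0.01. That median ran from -0.05 without GW_A replicate 2 to 0.03 without GW_A replicate 5, and was 0.02 within libraries 1 to 36 and -0.07, with 66 negative, within 37 to 60. In DA none passed (0.0%), with 44 positive, 35 negative and a median of 0.01. The even split in DA held for the fit without the range term. With it 60 were positive, with a median of 0.06. Within the ranges the median was 0.07 and -0.06, and it was -0.07 without GW_DA replicate 3 and 0.09 without Veh_DA replicate 3. At an unadjusted p under 0.05 there were 0 members in D, 1 in A and 0 in DA, against 3.11%, 3.62% and 3.19% of all genes.

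Averaged over the 4 genotypes, the GW effect again passed for no member (0.634% of all genes), with 2 members at an unadjusted p under 0.05 (7.0% of all genes). Of the 79, 74 were negative, with a median of -0.07, which was -0.04 without Veh_WT replicate 2 or without GW_D replicate 4. Rpl35, which sits by the exit of the peptide tunnel, came nearest. Its log2 fold change was -0.25 ± 0.08 with a 95% interval of -0.41 to -0.09, an unadjusted p of 0.00342 and an adjusted p of 0.241 (edgeR, Benjamini-Hochberg). With a term for the library-number ranges the adjusted p was 0.0557. In WT its mean was 304 ± 17.2 CPM with vehicle and 252 ± 39.7 CPM with GW (SD). The pair of means was 291 ± 26.3 and 255 ± 29.1 CPM for D, 265 ± 40.8 and 231 ± 26.1 CPM for A, and 285 ± 36.9 and 225 ± 51.2 CPM for DA. The GW mean was below the vehicle mean in all 4 genotypes, with libraries overlapping in D, A and DA. In WT all 5 GW libraries, at 230, 287, 266, 284 and 193 CPM, lay below the lowest vehicle library, at 287.2 CPM. The nearest of them was at 286.5 CPM.

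Genotype was compared with WT within each treatment, and these comparisons share the WT libraries. In vehicle no member passed in D (0.0423% of all genes), in A (0.148%) or in DA (0.296%), with 0, 0 and 1 member at an unadjusted p under 0.05, against 3.43%, 4.42% and 6.26% of all genes. The medians were 0.03, -0.09 and -0.06, and the numbers of members above WT were 62, 9 and 10 of 79. In A, Rpl5 stood at -0.21 ± 0.11 and Rpl11 at -0.23 ± 0.14. In DA, Rps4l stood at -0.90 ± 0.43, on 2 to 8 counts in each DA library, with an adjusted p of 0.765 (edgeR, Benjamini-Hochberg). The medians in vehicle moved with single libraries. Without Veh_WT replicate 2 the median in A was -0.03 and without Veh_WT replicate 3 -0.05. Without Veh_D replicate 2 the median in D was -0.04, and without Veh_D replicate 3 it was -0.02. It was 0.09 without Veh_WT replicate 2, and -0.06 within libraries 37 to 60, with 57 of 79 members lower. In DA the median was -0.12 without Veh_DA replicate 3 and -0.02 without Veh_WT replicate 2 or without Veh_WT replicate 3. Within libraries 1 to 36 it was -0.13, and within 37 to 60, with 1 DA library, 0.02.

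Under GW no member passed either, in D (0.0634% of all genes), in A (0.233%) or in DA (0.846%), with 1, 2 and 1 member at an unadjusted p under 0.05, against 3.68%, 4.97% and 9.05% of all genes. Medians were 0.09, 0.03 and 0.10, with 70, 54 and 67 of 79 members above WT. Single libraries moved them. The median in D was 0.00 without GW_D replicate 3, 0.18 without GW_D replicate 4, 0.02 without GW_WT replicate 4 and 0.17 without GW_WT replicate 3. That in A was -0.02 without GW_WT replicate 5, -0.01 without GW_WT replicate 4 and 0.11 without GW_WT replicate 3. That in DA was 0.03 without GW_WT replicate 5, 0.04 without GW_DA replicate 3 and 0.15 without GW_WT replicate 3. Within libraries 1 to 36 the 3 medians were 0.03, -0.01 and 0.03, and within 37 to 60 they were 0.02, 0.12 and 0.22. Rplp0 had the smallest p, in A, and lay below WT where most members lay above. Its GW libraries in A were at 3009, 2909, 3251, 3391 and 3882 CPM, and those in WT at 4320, 3893, 3572, 4898 and 4532 CPM. The groups overlapped by 1 library of each over all, and within each range of library numbers every A library lay below every WT library. The log2 fold change was -0.37 ± 0.11 (95% interval -0.59 to -0.14), with an unadjusted p of 0.00187 and an adjusted p of 0.401 (edgeR, Benjamini-Hochberg). It was -0.37 within libraries 1 to 36 and -0.38 within 37 to 60, and over 22 alternatives it ran from -0.42 to -0.34 with adjusted p-values from 0.0884 to 1.0. The GW effect on Rplp0 in A was -0.22 ± 0.11 (adjusted p = 0.999, edgeR, Benjamini-Hochberg). Rpl5 was also lower in A under GW, by -0.24 ± 0.11.

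The difference of the GW response between another genotype and WT passed for no member in D (0.0% of all genes), A (0.0%) or DA (0.0846%), with 1, 0 and 0 members at an unadjusted p under 0.05, against 3.47%, 3.45% and 4.25% of all genes. The medians were 0.05, 0.12 and 0.16, with 60, 67 and 73 of 79 members positive. The median in D was -0.04 without GW_D replicate 3 and 0.13 without GW_WT replicate 3. It was also below 0 without GW_WT replicate 4, GW_WT replicate 5, Veh_D replicate 4, Veh_D replicate 5 or Veh_WT replicate 2, and within libraries 1 to 36 it was -0.05, with 57 of 79 negative. That in A ran from 0.06 without GW_WT replicate 4 to 0.18 without GW_WT replicate 3, and that in DA from 0.09 without GW_DA replicate 3 to 0.22 without GW_WT replicate 3. All 3 use the same WT libraries, in which the members lay low under GW. Rps19bp1 had the smallest p in D, at 0.77 ± 0.30 on 8 to 25 counts per library of the 4 groups, with an adjusted p of 1.0 (edgeR, Benjamini-Hochberg). Rpl21 in DA stood at 0.28 ± 0.15 and Rpl9 in A at 0.25 ± 0.16. Over the 14 comparisons and their alternatives, a member passed in 2 of 374 fits. Both were fits of libraries 37 to 60 alone, Rplp1 for GW in WT and Rps4x for D against WT under GW, where D has a single library, at 5479 CPM of Rps4x.

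**Figure D2:**
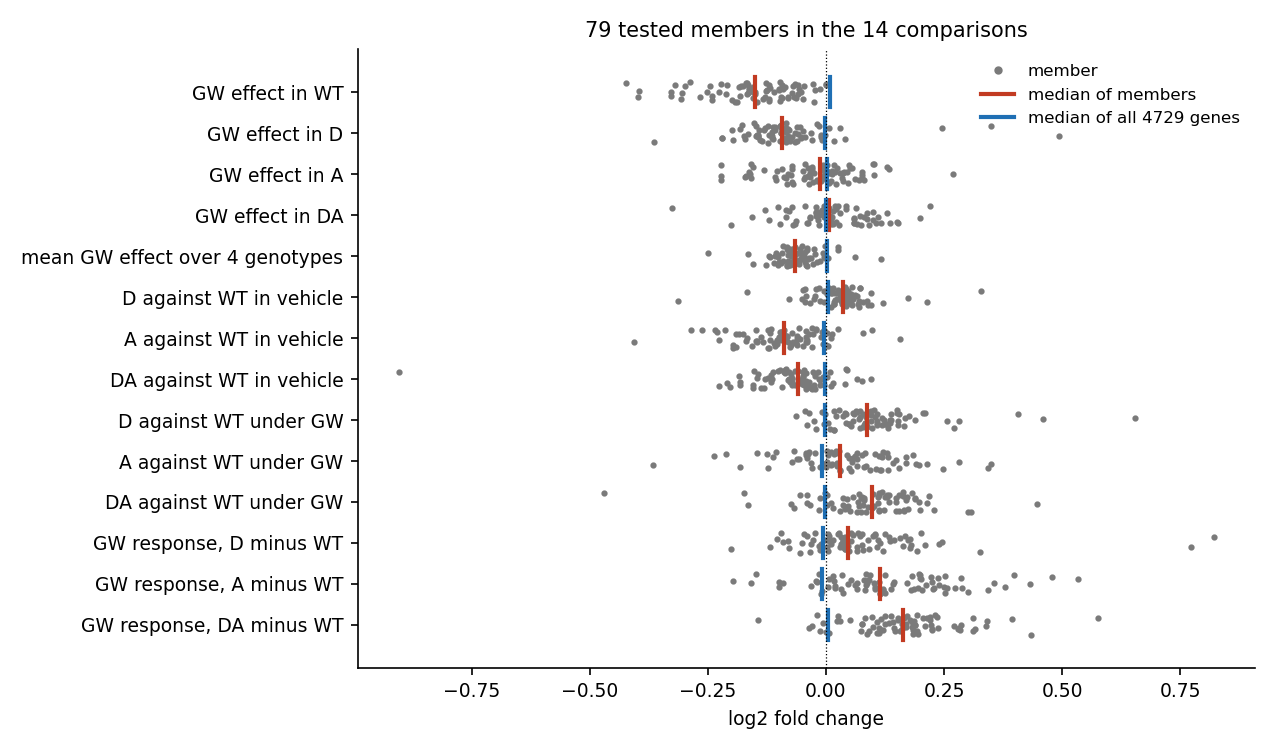
Log2 fold changes of the 79 tested members (grey points, spread vertically for view) in the 14 comparisons. Red bars are the medians of the members and blue bars those of all 4729 genes. Points lie left of 0 for GW in WT, with a median of -0.15, and around 0 for GW in A and DA, with medians of -0.01 and 0.01 in this fit without a range term, and none passed the test.

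The summed share of counts of the 89 members was compared by group and by library-number range. WT had 20.7% ± 1.43 (SD, n = 5) with vehicle and 19.1% ± 2.29 (n = 5) with GW. D had 21.05% ± 1.74 (n = 5) and 19.9% ± 1.90 (n = 4). A had 20.4% ± 1.04 and 19.8% ± 1.54 (n = 5 each). DA had 20.7% ± 0.862 (n = 4) and 20.6% ± 1.62 (n = 5). Each difference within a genotype was smaller than the SD of its GW group, an SD that holds the gap between the ranges. Within the ranges the GW libraries lay lower without overlap in WT and D. In WT they had 19.24% to 21.357% against 21.364% to 22.18% in the earlier range, and 16.2% to 17.4% against 18.97% to 19.4% in the later one. In D they had 20.1% to 21.3% against 21.56% to 22.7%, and 17.1% in 1 library against 18.99% to 19.4%. In A the GW libraries lay lower without overlap in the later range alone, at 17.8% to 18.4% against 19.3% to 19.4%, and in DA they did in the later range, at 18.96% to 19.8% against 20.2% in 1 library. These within-range differences have no test. The 24 libraries numbered 1 to 36 had 19.2% to 22.98% with a median of 21.2%, and the 14 numbered 37 to 60 had 16.2% to 20.2% with a median of 19.0%. In every group the mean of the later libraries was below that of the earlier ones. The gap was widest for GW in WT, 16.8% against 20.6%, and narrowest for vehicle in DA, 20.2% in a single later library against 20.9%. In these bulk organoids, fewer cells rich in these messengers and less of the messengers per cell cannot be told apart. A share of all counts also falls when the counts of other genes rise. Summed markers of enterocytes had median levels of 21896 CPM with vehicle and 36122 CPM with GW in WT. The pair of medians was 23605 and 37542 CPM in D, 15567 and 30468 CPM in A, and 13763 and 12953 CPM in DA. The part of these or other cell type markers in the GW differences of the share was not tested.

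**Figure D3:**
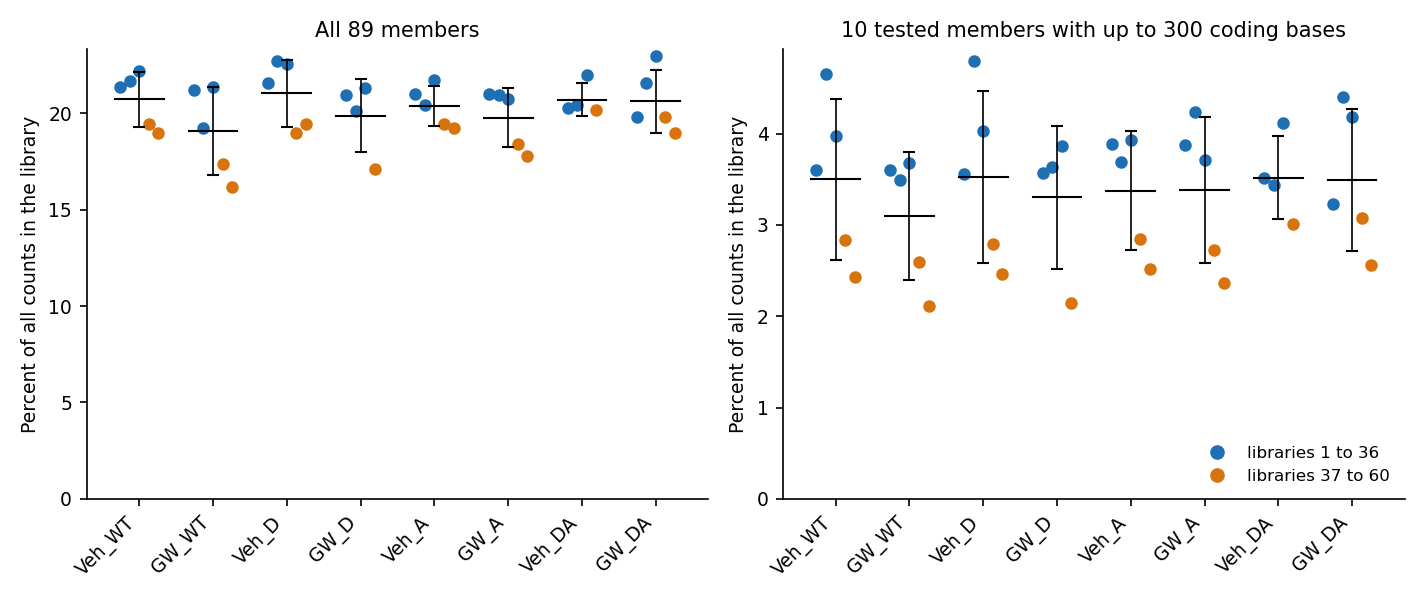
Percent of a library's counts in all 89 members (left) and in the 10 tested members with up to 300 coding bases (right). Each point is a library, horizontal bars are group means and whiskers 1 SD; orange points are libraries 37 to 60. The orange points lie at 16.2% to 20.2% on the left, and at 2.11% to 3.08% on the right, below all blue points, which start at 3.23%.

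A comparison of the 2 ranges, chosen after these values were seen, was fitted with a term for the ranges beside the 8 groups. It passed for 61 of the 79 members, 56 lower and 5 higher in libraries 37 to 60, while 25.6% of all genes passed, 12.8% lower and 12.8% higher. The median of the members was -0.23 and that of all genes 0.04. With total counts as the only scaling, which moved the median of all genes by 0.14, the numbers were 37 lower and 10 higher, while 36.2% of all genes passed. Large-subunit members passed lower in 33 of 48 cases and small-subunit members in 23 of 31. What the library numbers stand for was not tested. The GW and genotype medians within each range and with the range term are given above. The Xist and Y-linked counts moved with the same ranges.

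Rps29 showed the largest difference. In libraries 1 to 36 it ran from 3564 to 5128 CPM with a median of 4087, and in libraries 37 to 60 from 1834 to 2482 CPM with a median of 2238. The ranges did not overlap. The log2 fold change was -1.07 ± 0.06 (adjusted p = 1.65e-16, edgeR, Benjamini-Hochberg). Rpl39 had 2427 to 4261 CPM in the earlier and 1208 to 2068 CPM in the later libraries, a change of -1.06 ± 0.09. Rps21 followed at -0.96 ± 0.08, Rps27 at -0.86 ± 0.08, and Rpl37rt and Rpl37, the pair shown above, at -0.84 ± 0.07 and -0.79 ± 0.07. Every later library lay below every earlier one in 11 members, Rpl22, Rpl22l1, Rpl34, Rpl35a, Rpl36, Rpl37, Rpl37rt, Rpl39, Rps21, Rps27 and Rps29. Among all tested genes 0.571% did so. No member had every later library above every earlier one (0.127% of all genes).

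The 5 members that were higher in the later libraries were Rpl8 (0.20 ± 0.05), Rpsa (0.19 ± 0.05), Rpl3 (0.18 ± 0.05), Rpl7a (0.17 ± 0.05) and Rplp0 (0.15 ± 0.05). Rpl3 ran from 1694 to 2772 CPM in the earlier libraries and from 2307 to 3199 CPM in the later ones, so its ranges overlapped. All 5 kept their direction in every alternative, but none of them passed without the filter on low counts. Rplp0 also missed the threshold without GW_DA replicate 2 and without Veh_WT replicate 2. Rps6 did not differ beyond its error, at 0.02 ± 0.04.

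**Figure D4:**
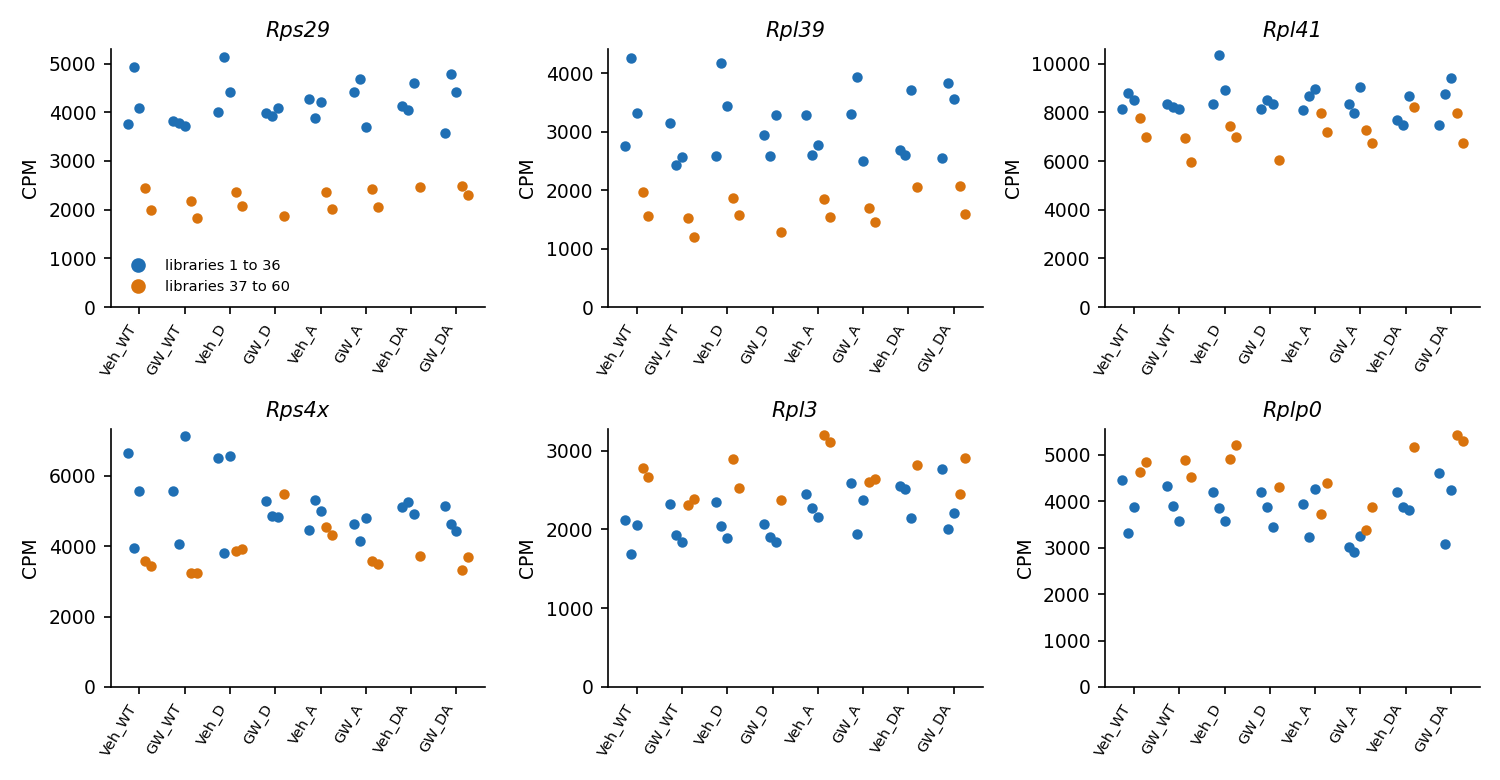
CPM of 6 members in each library of the 8 groups, with libraries 1 to 36 in blue and 37 to 60 in orange. Within every group Rps29 and Rpl39 are lower in the orange libraries, all at or under 2482 and 2068 CPM. Rpl3 is higher on average there, and Rps4x is lower in every group mean except that of D under GW.

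The difference between the ranges followed coding length. The 10 members of up to 300 coding bases had a median log2 fold change of -0.77, the 27 of up to 450 bases -0.38, the 18 of up to 600 bases -0.16, the 19 of up to 900 bases -0.13 and the 3 longer ones 0.15. As a description across 77 members, which share their libraries, Spearman's rho with coding length was 0.80. Other genes showed it too: rho was 0.63 over 479 other genes whose mean log2 CPM was 8 or more, and 0.25 over all 4443 others. At the same length and a mean log2 CPM of 8 or more, other genes had medians of -0.42, -0.19, -0.06, 0.02 and 0.07. The summed short members made up 3.23% to 4.79% of the counts in the earlier libraries and 2.11% to 3.08% in the later ones, without overlap. Members with over 600 coding bases made up 4.51% to 5.69% and 4.83% to 5.89%.

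Some members stood off this line. Rpl41, the shortest, changed by -0.39 ± 0.06, less than the other short members. Rps4x, with 789 coding bases, changed by -0.55 ± 0.07, more than any other member of over 600 bases. It lies on the X chromosome. In the earlier libraries it had 3818 to 7132 CPM where Xist exceeded the Y-linked counts (18 libraries) and 4643 to 6646 CPM where it did not (6), and in the later ones 3231 to 5479 CPM. The medians were 4840, 5214 and 3638 CPM, and the ranges of all 3 sets overlapped. The 6 earlier libraries without high Xist are those numbered 1 to 5 and 9. They include the 5 columns with a suffix 2 in their names, so these marks cannot be told apart. The part of the X chromosome in the difference of Rps4x was not tested. Without the 3 X-linked members rho was 0.82. Members whose promoter window held CTCTTT or CTTTCC had a median difference of -0.24 (24 members), and those with neither -0.28 (35).

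**Figure D5:**
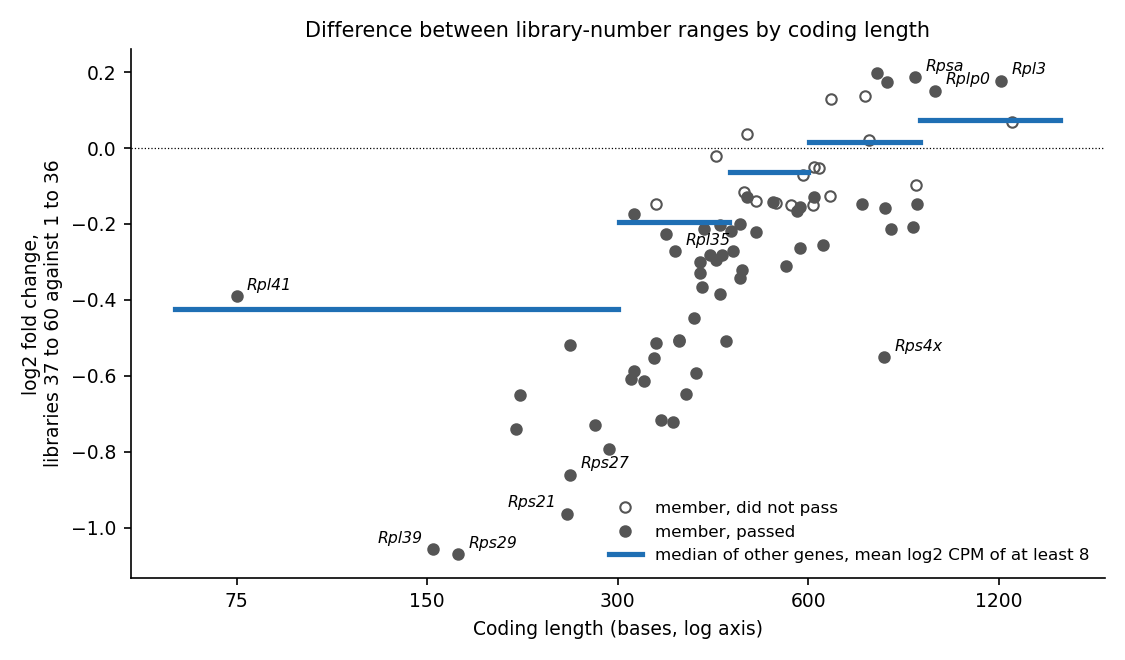
Log2 fold change between libraries 37 to 60 and 1 to 36 against coding length in bases (log axis) for 77 members; filled points passed the test. Blue bars are medians of other genes whose mean log2 CPM was 8 or more in the same length classes. Members of up to 300 bases lie between -1.07 and -0.39, the longest between 0.07 and 0.18, and Rps4x lies apart at -0.55.

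The members also varied together within groups. After the group means were taken out, the first principal component held 75.2% of the variance of the 79 members over the 38 libraries, and the median correlation of 2 members was 0.57. With the means of the library-number ranges taken out as well, it held 42.1% and the median correlation was 0.38. In both cases its weights followed coding length, with an absolute Spearman's rho of 0.85 and 0.87 over 77 members. The largest weights were those of Rpl39, Rps29, Rps21 and Rps27, and Rpl3 had the largest weight of the opposite sign. Components and correlations were not computed for other genes, so this shared variation cannot be called particular to the members. The later range was not uniform for the short members. In the 6 groups with a pair of later libraries, the one with the lower number was higher in all 6 pairs for 9 of the 10 shortest members, against 2 of the 22 members over 600 bases. The same count was not made over all tested genes, so it cannot be called particular to the members.

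Spread between libraries was low for most members. The biological coefficient of variation, edgeR's estimate of spread beyond counting, had a median of 0.144 over 76 members whose mean log2 CPM was 8 or more, against 0.154 over 504 other genes of such level. With the range term the medians were 0.111 and 0.122. The largest values were those of Rpl39 (0.378), Rps29 (0.360), Rps21 (0.346), Rps27 (0.318) and Rpl37rt (0.303), which were 0.126 to 0.180 with the range term. Among the smallest were Rps6 (0.0967), Rpl6 (0.0984) and Rps3a1 (0.109). Rps19bp1 had 0.063, but at 22.6 to 68.8 CPM it lay below a mean log2 CPM of 8, and its value is not comparable with theirs.

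Other genes of the translation machinery, from lists of known parts, were called in both directions between the ranges, where 12.8% of all genes were higher and 12.8% lower. Of 76 tested genes for proteins of the mitochondrial ribosome, 15 were higher and 15 lower. Of 46 initiation factors 7 were higher and 3 lower, with Eif5 at 0.81 ± 0.11. Of 11 elongation factors 4 were higher and 1 lower, with Eef2, which moves the ribosome along, at 0.43 ± 0.06. Of 37 ribosome biogenesis genes 5 were higher and 2 lower, so that the higher shares of initiation and biogenesis genes were near that of all genes. Of 21 other TOP messengers 5 were higher and 4 lower. In the GW effect in WT no gene of these 5 lists passed. Among cell type markers, 4 of 6 goblet cell genes were lower and 6 of 13 proliferation genes higher in the later libraries, each with none the other way. Of 6 Paneth cell genes 1 was higher and 2 lower, of 9 enterocyte genes 1 and 2, of 9 epithelial genes 2 and 0, of 5 stem cell genes 0 and 1, and of 5 enteroendocrine genes 0 and 0. Summed goblet markers ran from 3346 to 6527 CPM in the earlier and from 2949 to 4069 CPM in the later libraries, and their part in the members' difference was not tested.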

How the data were processed

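Members and lists were chosen with earlier results of these data known. The deposited tables hold counts, whole numbers for each Ensembl gene, and log2 values that match log2 of CPM plus 1. Salmon 1.1.0, R 3.6.2, edgeR 3.26.8 and mm10 are named per the submitters' processing notes; the deposited counts are rounded estimates. Of 57 columns 38 were used; 19 whose names match no sample were not. Columns joined groups by name and carry no replicate number, so replicates are numbered in column order; 5 names carry an unexplained suffix 2. Symbols and coordinates came from GENCODE M21 (mm10), with symbols for 54109 genes and none for 243.

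After filterByExpr by group and TMM scaling, edgeR 4.0.16 under R 4.3.3 (glmQLFit, glmQLFTest) took 1 model of the 8 groups, with Benjamini-Hochberg adjustment over 4729 genes and a threshold of 0.05. CPM are unscaled. The fit was tested on simulated data. Alternatives used DESeq2 1.42.0, limma 3.58.1 (log2 CPM, prior count 2), other scalings, no filter, terms and subsets by library number, and each library left out. Named members were those with the smallest p per comparison (up to 4), the 5 highest and lowest levels, the 5 largest and smallest spreads, stalk genes, Rpsa, Rpl41, Rpl5, Rpl11, Rps6 and paralogs. The range comparison and later-library pairs were added after the data were examined. Some items are not reported here.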

Additional observations from a re-analysis of the deposited data

Results flagged for a closer look

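Of 112 sets of 4 or 5 library values examined, 6 had a library whose distance from its nearest neighbour took an unusual share of the set's range, about as many as chance gives at 1 in 20. In the summed share of counts, the highest vehicle library in DA stood at 21.98% and the others at 20.2% to 20.4%. For GW in D, the single library of the later range had the lowest Rps29, at 1863 CPM against 3914 to 4082 CPM, and the lowest Rpl41, at 6060 CPM against 8154 to 8530 CPM. An earlier library of D under GW had both the highest Rpl5, at 2001 CPM against 1589 to 1629 CPM, and the highest Rps4l, at 47.2 CPM against 14.97 to 17.4 CPM. The lowest Rpl5 with vehicle in A was 1418 CPM against 1617 to 1652 CPM.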

How the results depend on the processing

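No paired analysis was possible because the columns carry none of the labels' replicate numbers. A block for the library-number ranges was fitted in its place. Counts of members that passed stayed at 0 in the 14 treatment and genotype comparisons, except with libraries 37 to 60 alone, where 1 passed for GW in WT and 1 for D against WT under GW. Among 1479 alternative values of 46 named results, 1470 kept direction and side of the threshold, 8 missed the threshold and 1 turned: Rpl31 in D against WT in vehicle, -0.11 with libraries 37 to 60 alone (0.33 with all). Between the library ranges the members passing numbered 58 to 68 with single libraries left out, 46 of 84 without the filter (4.7% of all genes) and 47 of 79 with total counts (36.2%), which also gave a median of -0.083, and Rpl35 then missed the threshold at -0.13. The cause was not tested. The summed share moved by construction when genes were removed or added. Without mitochondrially encoded genes it was 22.8% (Veh_WT), 23.2% (Veh_D), 21.9% (GW_D), 22.2% (Veh_A), 21.7% (GW_A), 22.7% (Veh_DA) and 22.7% (GW_DA). With pseudogenes it was 21.5% (Veh_A) and 21.8% (Veh_DA). Without the 5 highest members it was 17.5% (Veh_WT), 16.1% (GW_WT), 17.7% (Veh_D), 16.7% (GW_D), 17.2% (Veh_A), 16.7% (GW_A), 17.5% (Veh_DA) and 17.5% (GW_DA). In libraries 37 to 60 alone it was 19.2% (Veh_WT), 16.8% (GW_WT), 19.2% (Veh_D), 17.1% (GW_D) and 18.1% (GW_A). With 2 to 22 counts of Rps4l and 8 to 33 of Rps19bp1 per library, differences of these members are the least precise.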
